A study of Mus musculus with 12 samples.

Results

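The NR4A family of orphan nuclear receptors was examined in splenic resting B cells of mice whose Runx1 gene had been deleted in the B cell lineage. Its members Nr4a1 (Nur77), Nr4a2 (Nurr1) and Nr4a3 (Nor1) were found in the count table by gene symbol, as 3 of 37991 identifiers. All 3 passed the filter on low counts. They were chosen by their response to the antigen receptor, with the values of these samples at rest and at 3 h known. The change from rest to 3 h is therefore given here as a description with no test. The choice may also have drawn on genotype differences, so the p-values of the genotype tests below may not be independent of it. Nr4a3 was higher at 3 h than at rest, whereas Nr4a1 and Nr4a2 were lower at 3 h than at rest in both genotypes. Samples were taken only at rest and at 3 h, so a rise and fall in between could not be seen. Whether each member was induced by the antigen receptor was therefore not tested.

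RNA was sequenced from B cells of Runx1 c-k/o mice (c-k/o from here on), which carry a floxed Runx1 gene and the CD23-iCre transgene, and of control mice with the CD23-iCre transgene alone (Cre-only). The mice of all groups were 8 weeks old, and the Cre driver, carried by controls too, becomes active in transitional B cells, before they mature. Cells were taken at rest (0 h) and after 3 h with anti-IgM, which crosslinks the antigen receptor, and IL-4, a T cell cytokine. No sample was cultured for 3 h without them, so anti-IgM, IL-4 and the culture itself cannot be told apart. Each of the 4 groups held 3 replicates, 12 samples in all, with totals of 14442251 to 23641552 counts. Levels are given as normalized CPM, the counts scaled to a common library size (CPM) after TMM normalization. They are relative to the other RNA of a sample, so a rise or fall is not one in amount per cell.

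NR4A receptors bind DNA as monomers at the NBRE element and as dimers at related sites, and they act without a known natural ligand, so that their activity follows their amount. They are immediate early genes in lymphocytes: calcium, CREB, MEF2 and SRF signals switch them on within minutes of antigen receptor engagement and their mRNA is short-lived. In B cells Nr4a1 is used as a reporter of antigen receptor signalling and is known to restrain the response to antigen without help from T cells.

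The 3 genes lie on different chromosomes of mm9, and 0 annotated genes overlap any of them. Nr4a1 (ENSMUSG00000023034) lies on the plus strand of chromosome 15 from 101097277 to 101105223, in 1 annotated transcript with 7 exons. Nr4a2 (ENSMUSG00000026826) lies on the minus strand of chromosome 2 from 56959241 to 56976414, with 6 annotated transcripts. Nr4a3 (ENSMUSG00000028341) lies on the plus strand of chromosome 4 from 48058025 to 48099319, with 4 annotated transcripts. The exons of each gene cover 2474, 4059 and 5987 bases in this order, and levels per kb are relative to these lengths.

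The promoter windows are shown because the family is known as a target of CREB, and because they show how the members differ at their start sites. Each window is from RefSeq on build GRCm38.p6, runs 5′ to 3′ on the gene's strand, and holds 250 bases before the start site and 50 after it. Capitals mark the CRE core, TGACG or its reverse complement CGTCA, and in Nr4a1 the longer variant TGCGTCA that contains it.
Nr4a1, chr15:101266596-101266895, plus strand: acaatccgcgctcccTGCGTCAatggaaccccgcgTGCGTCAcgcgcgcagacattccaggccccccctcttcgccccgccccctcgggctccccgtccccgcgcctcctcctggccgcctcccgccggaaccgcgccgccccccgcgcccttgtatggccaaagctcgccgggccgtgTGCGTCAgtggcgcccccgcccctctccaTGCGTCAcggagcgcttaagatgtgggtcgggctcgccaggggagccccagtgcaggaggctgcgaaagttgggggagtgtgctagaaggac
Nr4a2, chr2:57123954-57124253, minus strand: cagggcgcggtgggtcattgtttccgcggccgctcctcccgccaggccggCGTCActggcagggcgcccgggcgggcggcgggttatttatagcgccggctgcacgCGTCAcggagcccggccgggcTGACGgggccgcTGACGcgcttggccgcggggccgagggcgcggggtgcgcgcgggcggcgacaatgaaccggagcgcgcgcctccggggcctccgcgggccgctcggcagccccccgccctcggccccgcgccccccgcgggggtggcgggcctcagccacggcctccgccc
Nr4a3, chr4:48045055-48045354, plus strand: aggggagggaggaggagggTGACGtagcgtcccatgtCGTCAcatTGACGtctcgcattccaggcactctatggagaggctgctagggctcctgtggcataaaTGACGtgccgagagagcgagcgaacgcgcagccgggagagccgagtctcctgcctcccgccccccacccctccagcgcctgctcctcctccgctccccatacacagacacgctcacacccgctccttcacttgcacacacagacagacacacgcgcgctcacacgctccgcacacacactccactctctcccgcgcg
All 3 windows held 4 CRE cores. Of 32851 such windows of mouse genes, 20.8% held at least 1 core on either strand and 0.231% held 4 or more, a count that was looked up after the members' number had been seen. In Nr4a1 all 4 cores were part of the variant TGCGTCA, which 2.12% of all windows held on either strand and which the windows of Nr4a2 and Nr4a3 lacked. The cores of Nr4a1 began at positions -233, -213, -69 and -40 relative to the start site. Those of Nr4a2 began at -200, -144, -123 and -111, and those of Nr4a3 at -231, -213, -205 and -147. The RUNX letters TGTGGT, searched on both strands and present in 16.8% of all windows, were in 0 of the 3, as were the full CRE TGACGTCA (1.79% of windows) and the NBRE letters AAAGGTCA (1.51%). Also absent from all 3 were the letters of MEF2 (0.557% of windows), of the SRF site CArG (1.63%), of EGR (0.612%) and of AP-1 (5.2%). The TATA letters, present in 13.6% of windows, had 1 match in Nr4a2. These matches describe the letters of the windows and do not show binding. The windows were rich in G and C, at 72.3% in Nr4a1, 81.7% in Nr4a2 and 64.7% in Nr4a3, beside a median of 52.7% over all windows. The shares of windows given above were not matched for this content. Each window matched mm9 exactly once, with its start site at an annotated start of Nr4a1 and Nr4a2 and 74 bases from the nearest annotated start of Nr4a3.

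Runx1, the targeted gene, was at 81.8 to 86.7 normalized CPM in resting Cre-only and 95.7 to 103 in resting c-k/o samples, and at 34.9 to 38.5 and 47.3 to 74.5 after 3 h. Reads on every exon enter these counts, the floxed exon included without being told apart, so the deletion cannot be checked from them, and the libraries are called by their labels. At 3 h Runx1 counts were higher in the c-k/o samples (log2 fold change 0.80, edgeR adjusted p = 0.00769). Replicates 1 to 3 came from separate samples by their labels, which name no batch. The summed level of 11 B cell marker genes was 27300 to 33300 normalized CPM at rest and 15200 to 20300 at 3 h. Of this, Cd74 alone was at 10600 to 13600 at rest and 7470 to 12600 at 3 h, so the sum is no check of identity by itself. In Cre-only cells the mean of Cd79a went from 2080 at rest to 349 at 3 h, and that of Ms4a1 from 1250 to 434. Of the T cell markers, Cd3d, Cd3e and Cd3g reached at most 0.819 normalized CPM.

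Nr4a1 had the highest level of the members in every sample, and at 3 h its level in c-k/o cells exceeded that in Cre-only cells. At rest, in the order of replicates 1, 2 and 3, the Cre-only samples had 1014, 1303 and 1209 normalized CPM of Nr4a1 and the c-k/o samples 1006, 1377 and 1136. The ranges of the genotypes overlapped at rest, and replicate 2 was the highest in both. After 3 h it was at 443, 514 and 446 in Cre-only and at 883, 729 and 651 in c-k/o cells. Every 3-h sample lay below every resting sample of its genotype, and every c-k/o sample at 3 h lay above every Cre-only one.

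Nr4a2, best known for its role in dopamine neurons, showed the largest difference between genotypes in the family. At rest the Cre-only samples had 45.6, 46.0 and 60.8 normalized CPM of Nr4a2 and the c-k/o samples 57.1, 49.4 and 53.0, so the ranges overlapped. After 3 h it was at 14.9, 16.9 and 17.7 in Cre-only cells but at 47.6, 45.0 and 46.1 in c-k/o cells. The lowest c-k/o sample at 3 h was well above the highest Cre-only sample, and the c-k/o replicates lay close together.

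Nr4a3, which shares its DNA-binding domain and several targets with Nr4a1, was the member with a higher level at 3 h. At rest the Cre-only samples had 41.3, 47.0 and 48.3 normalized CPM of Nr4a3 and the c-k/o samples 41.7, 74.8 and 33.8. After 3 h it was at 259, 320 and 283 in Cre-only and at 318, 303 and 333 in c-k/o cells. The genotypes overlapped at both times. The resting c-k/o replicate 2 stood above the other resting samples, with a CV of 43.4% in that group against 4.82% to 10.7% in the other 3.

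**Figure D1:**
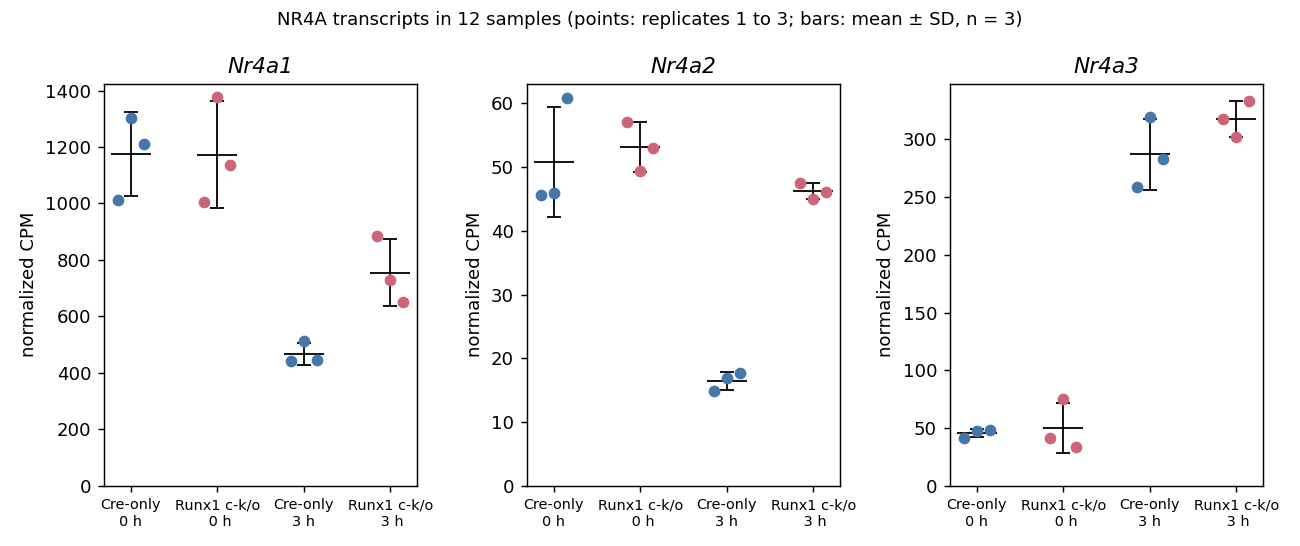
Normalized CPM of Nr4a1, Nr4a2 and Nr4a3 in each sample, with 1 panel per gene and a linear axis from 0. Blue points are Cre-only and red points c-k/o replicates, ordered 1 to 3 from left to right, and black lines are the mean ± SD of 3 samples. The c-k/o samples of Nr4a2 at 3 h sit between 45.0 and 47.6, near the resting samples and far above the Cre-only samples at 14.9 to 17.7.

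Between rest and 3 h, Nr4a1 was 2.52-fold lower in Cre-only cells (log2 fold change -1.33, SE 0.154) and 1.56-fold lower in c-k/o cells (-0.64, SE 0.152). Nr4a2 was 3.09-fold lower in Cre-only cells (-1.63, SE 0.123) and 1.15-fold lower in c-k/o cells (-0.20, 95% confidence interval -0.457 to 0.0549). Nr4a3 was 6.30-fold higher in Cre-only cells (2.66, SE 0.233) and 6.34-fold higher in c-k/o cells (2.67, SE 0.233). The samples of the 2 times did not overlap for any member in either genotype, an arrangement found in 84.4% of all genes tested in Cre-only and 72.8% in c-k/o cells. At an adjusted p under 0.05, 38.6% of all genes were higher and 36.4% lower at 3 h in Cre-only cells, and 37.7% higher and 36.6% lower in c-k/o cells. Because the members were chosen with this change known, nothing is read from these shares.

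Ordered by mean, Nr4a1 was highest in the resting groups, at 1180 ± 147 in Cre-only and 1170 ± 188 in c-k/o cells, which did not differ beyond their spread (SD, n = 3). It was followed by 754 ± 118 normalized CPM in c-k/o and 467 ± 40 in Cre-only cells at 3 h, each below the group before it in every sample. For Nr4a2 the order was 53.1 ± 3.86 in resting c-k/o, 50.8 ± 8.66 in resting Cre-only, 46.2 ± 1.28 in 3-h c-k/o and 16.5 ± 1.4 in 3-h Cre-only cells. Of these, the 3-h c-k/o group overlapped the resting Cre-only group, and the 3-h Cre-only group stood apart below all others. For Nr4a3 the 3-h groups, at 318 ± 15.3 in c-k/o and 287 ± 30.7 in Cre-only cells, overlapped each other and lay above the resting groups, at 50.1 ± 21.7 and 45.6 ± 3.72, which also overlapped.

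The question the design puts to these genes is whether loss of Runx1 changes their level at rest or at 3 h. Each was tested by the quasi-likelihood method of edgeR, with p-values adjusted by Benjamini-Hochberg over all 13538 genes tested. Before adjustment 1496 of these genes had a p under 0.05 at rest, 2194 at 3 h and 686 for the interaction tested below. At rest none of the 3 members was called different, in a comparison where 1.49% of all genes were called in either direction, and none by DESeq2 or at an unadjusted edgeR p under 0.05. Nr4a1 had a log2 fold change of -0.003 for c-k/o against Cre-only (95% confidence interval -0.332 to 0.326, edgeR adjusted p = 0.996). Nr4a2 had 0.07 (-0.189 to 0.322, edgeR adjusted p = 0.84) and Nr4a3 0.14 (-0.349 to 0.624, edgeR adjusted p = 0.825). These intervals leave room for differences of either sign, and for Nr4a3 they are the widest. Without the resting c-k/o replicate 2 the value of Nr4a3 was -0.27. At rest 23.7% of all genes had groups that did not overlap, and none of the members did.

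After 3 h 2 of the 3 members, Nr4a1 and Nr4a2, were higher in c-k/o cells, in a comparison where 2.77% of all genes were called and 1.47% were called higher. Nr4a2 was 2.81-fold higher (log2 fold change 1.49, SE 0.123, 95% confidence interval 1.22 to 1.76, edgeR adjusted p = 7.17e-05), the gene with the 8th smallest p of all. Its call held in 15 of 15 alternatives, among them each of the 6 samples left out in turn, with log2 fold changes of 1.42 to 1.54. By size it ranked 55th among the 199 genes called higher. Nr4a1 was 1.61-fold higher (0.69, SE 0.152, 0.36 to 1.02, edgeR adjusted p = 0.0303). Its call was less firm and held in 10 of 15 alternatives. The adjusted p of Nr4a1 was 0.143, 0.0728 and 0.133 without replicate 1, 2 or 3 of the 3-h Cre-only samples, 0.0649 without replicate 2 of the 3-h c-k/o samples and 0.0636 in a fit of the 3-h samples alone, and its log2 fold change over all alternatives was 0.59 to 0.79. Nr4a3 had a log2 fold change of 0.15 (95% confidence interval -0.325 to 0.62, edgeR adjusted p = 0.739). The groups of Nr4a1 and Nr4a2 did not overlap at 3 h, as was the case for 21.8% of all genes.

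The difference between genotypes was itself tested between rest and 3 h, and within the family this test called Nr4a2. Its interaction, the log2 fold change at 3 h less that at rest, was 1.42 (SE 0.169, 95% confidence interval 1.06 to 1.79, edgeR adjusted p = 0.00814). It was among the 11 genes called in this comparison, 0.0813% of those tested, with the 3rd smallest p. The call held in 21 of 21 alternatives, with adjusted p from 5.43e-13 to 0.0499, the highest of them without replicate 2 of the 3-h Cre-only samples. With a replicate block within each genotype, the count of genes called went from 11 to 4 and the adjusted p of Nr4a2 was 0.0439. For Nr4a1 the interaction was 0.69 (SE 0.214, 95% confidence interval 0.227 to 1.16, edgeR adjusted p = 0.586), with an unadjusted p of 0.00706 by the same edgeR test. With 1 factor of unwanted variation in the fit it was 0.68 (edgeR adjusted p = 0.036) or, with DESeq2, 0.72 (adjusted p = 0.000213). For Nr4a3 it was 0.01 (95% confidence interval -0.669 to 0.689, edgeR adjusted p = 0.999).

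**Figure D2:**
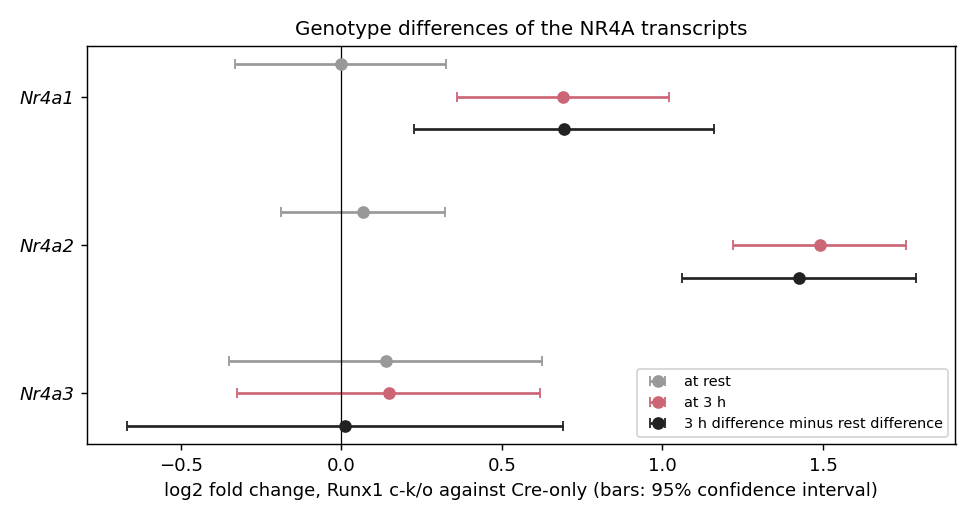
Log2 fold changes of the 3 NR4A genes, c-k/o against Cre-only, at rest (grey) and at 3 h (red), and the difference between these (black), with 95% confidence intervals from edgeR's fit of all 12 samples. At rest all 3 intervals cross 0, and at 3 h the intervals of Nr4a2 (1.22 to 1.76) and Nr4a1 (0.36 to 1.02) lie above it.

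The other genes called for the interaction were Itsn1, Tsc22d1, Elk3, Cd47, Gadd45a, Klhdc2, Prss12, Ass1, Zbp1 and Plcxd2, which were singled out after their values had been seen. Among them Gadd45a, a stress-induced regulator of the cell cycle, had an interaction of 1.07 (edgeR adjusted p = 0.0116). Cd47, the surface signal that holds off phagocytes, had 0.95 (edgeR adjusted p = 0.0116). Elk3, an SRF partner of the ETS family, had 1.00 (edgeR adjusted p = 0.00814), with a log2 fold change by genotype of -0.56 at rest and 0.44 at 3 h. For Klhdc2 (-1.288) and Ass1 (-1.039) the interaction was negative.

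Per kb of exon, Nr4a1 made up nearly all of the family at rest and less of it at 3 h. The mean level per kb of Nr4a1 was 475 normalized CPM in resting Cre-only, 474 in resting c-k/o, 189 in 3-h Cre-only and 305 in 3-h c-k/o cells. At rest it held 95.1% to 96.5% of the summed level per kb of the 3 genes in the 6 samples. At 3 h it held 77.7% to 79.2% in Cre-only and 79.7% to 84.6% in c-k/o samples. The share of Nr4a3 was 1.18% to 2.15% at rest, 19.1% to 20.4% in Cre-only cells at 3 h and 12.6% to 16.9% in c-k/o cells at 3 h. The share of Nr4a2 was 1.57% to 1.88% in Cre-only and 2.78% to 3.44% in c-k/o cells at 3 h. The 3 shares add up to the whole in each sample, so that one falls where another rises, and the levels of Nr4a3 themselves overlapped between genotypes. The summed level per kb of the family was 225.9 to 265.1 in Cre-only and 330.1 to 421.7 in c-k/o cells at 3 h.

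Among the nuclear receptor genes tested, 26 with the NR4A members, Nr4a1 had the highest level per kb in all 4 groups. It stood at rank 98 of 13514 genes with a length in resting Cre-only and rank 110 in resting c-k/o cells, and at rank 241 and 154 after 3 h. Nr4a3 went from rank 10 among nuclear receptors in resting Cre-only cells, at 7.61 normalized CPM per kb, to rank 2 at 3 h, at 47.9. In c-k/o cells it went from rank 9, at 8.37, to rank 2, at 53.1. Nr4a2 went from rank 7, at 12.5, to rank 12, at 4.06, in Cre-only cells, and from rank 7, at 13.1, to rank 8, at 11.4, in c-k/o cells. The next receptors after Nr4a1 in resting Cre-only cells were the glucocorticoid receptor Nr3c1, at 31.6 normalized CPM per kb, and the oxysterol receptor Nr1h2, at 31.5.

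**Figure D3:**
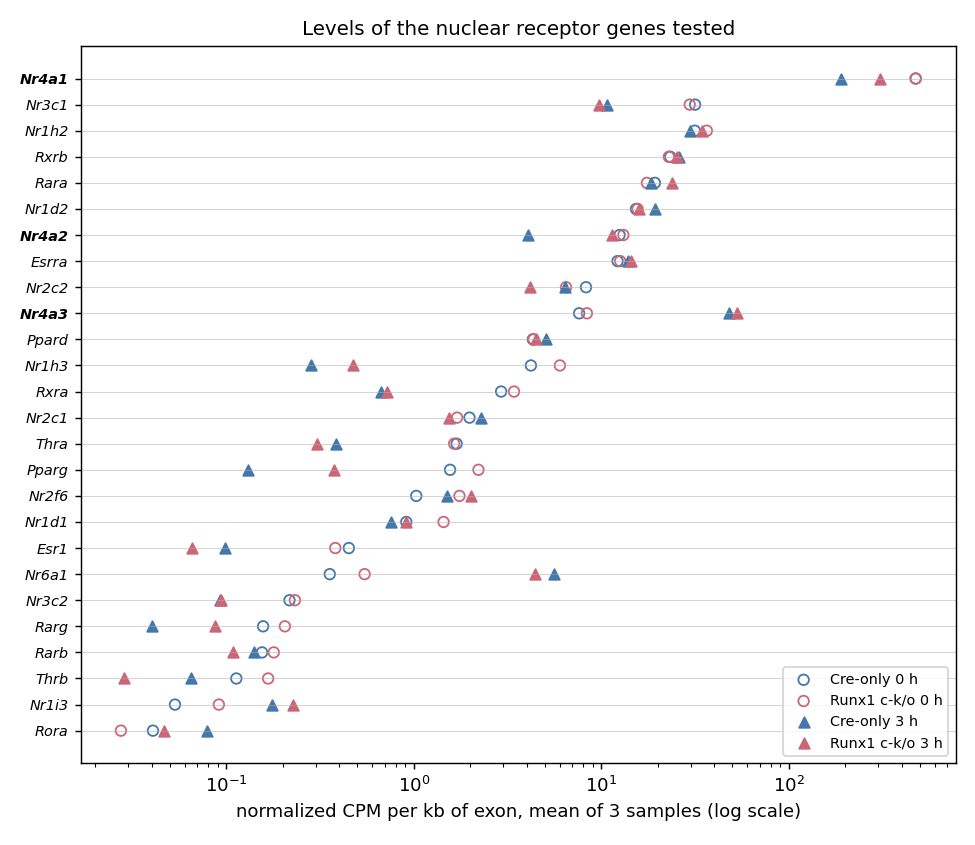
Mean normalized CPM per kb of exon, on a log axis, of the 26 nuclear receptor genes tested, ordered by their level in resting Cre-only cells, with the NR4A members in bold. Circles are resting and triangles 3-h groups, in blue for Cre-only and red for c-k/o. Nr4a1 lies to the right of all others in every group, and the 3-h groups of Nr4a3 (47.9 and 53.1) lie to the right of its resting groups (7.61 and 8.37).

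Of 46 other nuclear receptor genes, 23 passed the filter on low counts. By edgeR's test 1 of the 23 was called by genotype at each time. DESeq2 called 1 at rest and 3 at 3 h, Rara, Nr1d2 and Nr2c1. An unadjusted edgeR p under 0.05 was found for 4 at rest and 8 at 3 h, beside 1496 and 2194 of all 13538 genes. At rest Nr2f6, an orphan receptor of the COUP-TF family, was higher in c-k/o cells (log2 fold change 0.77, edgeR adjusted p = 0.0461, under 0.05 in 7 of 15 alternatives). At 3 h Rara, the retinoic acid receptor alpha, was higher (0.36, edgeR adjusted p = 0.0332, under 0.05 in 8 of 15 alternatives). Rara was at 81.3 to 87.5 normalized CPM in 3-h Cre-only and 104 to 115 in 3-h c-k/o samples. The median log2 fold change of the 23 was 0.11 at rest and -0.02 at 3 h, beside 0.03 and 0.01 over all genes tested. From rest to 3 h 6 of the 23 rose and 8 fell in Cre-only cells, beside 38.6% and 36.4% of all genes. In c-k/o cells 2 rose and 10 fell, beside 37.7% and 36.6%. In Cre-only cells Nr6a1, an orphan receptor, rose (log2 fold change 3.96), and Nr3c1 fell (-1.57) from 227 to 246 normalized CPM in the resting samples to 75.3 to 81.6.

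Regulators that connect antigen receptor signals to NR4A genes were taken as a list of 34 genes of calcium entry, calcineurin, NFAT, MEF2, CREB, SRF and class IIa histone deacetylases, of which 33 were tested. At rest 0 of the 33 were called by genotype by edgeR's test, and DESeq2 called 3. An unadjusted edgeR p under 0.05 was found for 4, beside 1496 of all 13538 genes. At 3 h 9 had an unadjusted edgeR p under 0.05, beside 2194 of all genes, and DESeq2 called 3, Camk2d, Nfatc1 and Ppp3ca. Ppp3ca, the calcineurin catalytic subunit, had a log2 fold change of 0.42 (edgeR adjusted p = 0.0816) and Nfatc1 had -0.43 (edgeR adjusted p = 0.0924). By edgeR's test 1 was called lower, Camk2d, a subunit of the calcium and calmodulin dependent kinase II (log2 fold change -0.39, edgeR adjusted p = 0.042, under 0.05 in 4 of 15 alternatives). Camk2d was at 244 to 272 normalized CPM in 3-h Cre-only and 175 to 219 in 3-h c-k/o samples. The median of the list at 3 h was -0.11. From rest to 3 h 11 of the 33 rose and 19 fell in Cre-only cells, beside 38.6% and 36.4% of all genes. In c-k/o cells 9 rose and 19 fell, beside 37.7% and 36.6%. Those that rose included the calcium channel Orai1 (log2 fold change 2.97), the kinase Camk4 (2.97), the MEF2 repressor Hdac4 (2.08) and the CREB family repressor Crem (1.32). Those that fell included the inositol trisphosphate receptor Itpr3 (-3.10), the kinase Prkd2 (-2.69), the deacetylase Hdac7 (-2.52) and Nfatc2 (-2.34).

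A list of 40 early response genes, drawn up as genes induced by the antigen receptor, was tested in full, whatever their direction at 3 h. At 3 h edgeR called 4 of the 40 higher and 1 lower in c-k/o cells. Over all genes it called 1.47% higher and 2.77% in either direction. DESeq2 called 12 of the 40 in either direction, beside 709 genes over all. An unadjusted edgeR p under 0.05 was found for 21 of the 40 at 3 h, beside 2194 of all 13538 genes. The median log2 fold change of the list was 0.33 at 3 h, beside 0.01 over all genes tested. The AP-1 genes Fosl2 (1.14), Atf3 (0.86) and Junb (0.84) and the ERK phosphatase Dusp5 (0.76) were higher, and the clock-linked repressor Bhlhe40 was lower (-0.43), with edgeR adjusted p of 0.0313, 0.0174, 0.0189, 0.0301 and 0.0255. These calls held in 8, 11, 11, 9 and 6 of 15 alternatives in the same order. Fosl2 was at 119, 155 and 140 normalized CPM in 3-h Cre-only samples and at 270, 309 and 335 in 3-h c-k/o samples. Junb was at 138, 181 and 170 in 3-h Cre-only samples and at 333, 318 and 221 in 3-h c-k/o samples.

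At rest Egr2, a zinc finger factor of B cell activation, was higher in c-k/o cells (1.29, edgeR adjusted p = 0.0222, under 0.05 in 11 of 15 alternatives) and Rgs2, a regulator of G protein signalling, was lower (-0.62, edgeR adjusted p = 0.0434, under 0.05 in 7 of 15 alternatives). Egr2 was at 42.4, 46.6 and 44.6 normalized CPM in resting Cre-only samples and at 74.6, 170 and 81.2 in resting c-k/o samples. Its highest resting sample, c-k/o replicate 2, was also the highest resting sample of Nr4a3 and of Fosl2, at 60.7 beside 22.1 to 27.4 in the others. Without this sample the log2 fold change of Egr2 was 0.80 (edgeR adjusted p = 0.00169). The same sample had the highest summed level of macrophage and monocyte markers at rest, 1010 normalized CPM beside 528 to 816 in the others, and the part of these cells in the Egr2 level was not tested. For the interaction 0 of the 40 were called by edgeR's test and by DESeq2. Of the 40, 8 had an unadjusted edgeR p under 0.05 for the interaction and 8 at rest, beside 686 and 1496 of all 13538 genes. At rest DESeq2 called 3 of the 40, Egr1, Egr2 and Rgs2.

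From rest to 3 h 12 of the 40 rose and 23 fell in Cre-only cells, beside 38.6% and 36.4% of all genes, and 11 rose and 21 fell in c-k/o cells, beside 37.7% and 36.6%. Fos fell from 802, 814 and 932 normalized CPM in resting Cre-only samples to 2.93, 3.59 and 3.12 at 3 h, and Jun and Klf2 fell as well. Egr2 rose in Cre-only cells to 624, 622 and 626, and Fosl1, Fosl2 and Myc rose as well. In 3-h c-k/o cells Fos was at 5.6, 45.1 and 3.89 and Klf2 at 29.6, 82.5 and 15.7, so replicate 2 stood above the others. Without replicate 2 the log2 fold change at 3 h was 0.72 for Nr4a1, which was then not called (edgeR adjusted p = 0.0649), and 1.51 for Nr4a2 (edgeR adjusted p = 0.000359).

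**Figure D4:**
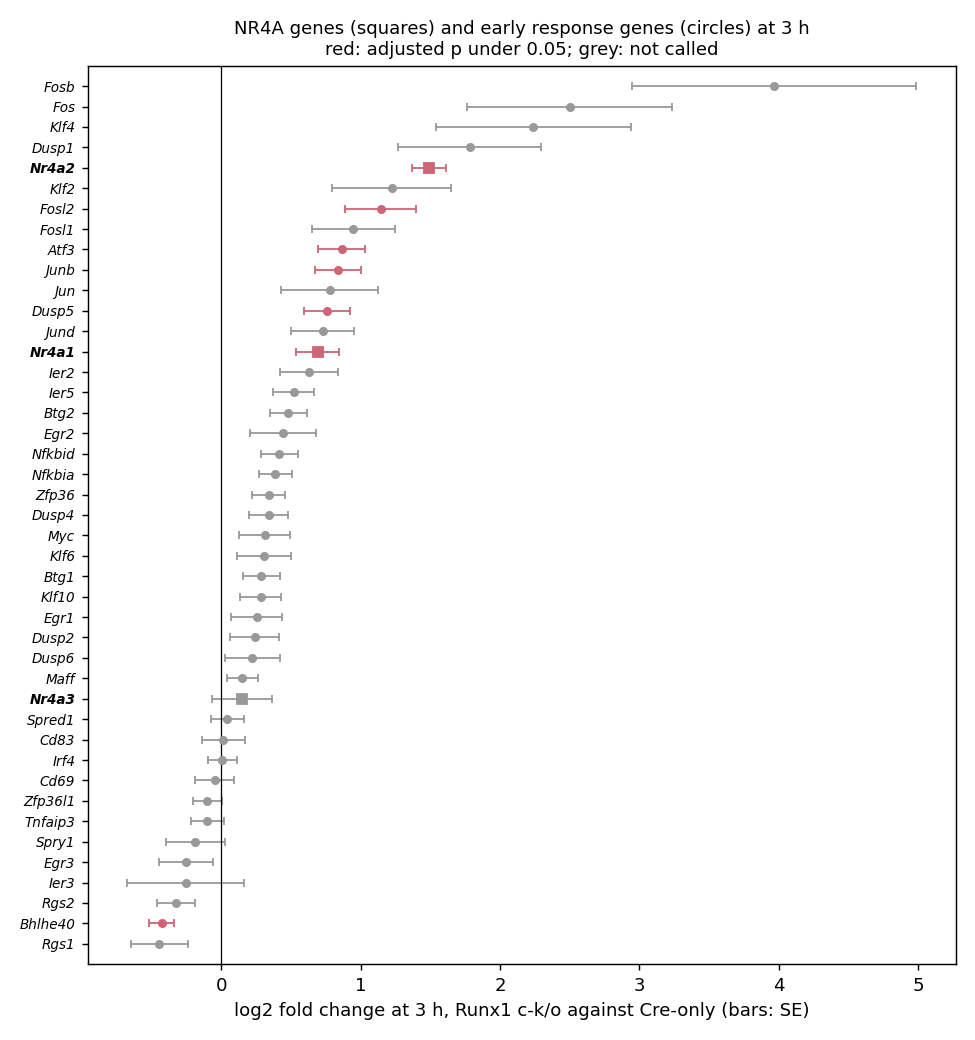
Log2 fold changes at 3 h, c-k/o against Cre-only, of the 3 NR4A genes (squares) and the 40 early response genes (circles), with bars of 1 SE, in red where the edgeR adjusted p was under 0.05. Nr4a2 at 1.49 has a small SE of 0.123, while Fos at 2.50, which was not called, has an SE of 0.736.

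Genes that NR4A receptors are known to regulate or accompany in lymphocytes formed a list of 18, of which 15 were tested. By edgeR's test 0 of the 15 were called by genotype at rest, at 3 h or for the interaction. At an unadjusted edgeR p under 0.05 there were 2, 1 and 0, beside 1496, 2194 and 686 of all 13538 genes. DESeq2 called 0, 1 and 0, in the same order, and the gene it called at 3 h was Bcl2l11. Batf, a factor that NR4A proteins repress in B cells, had a log2 fold change of 0.50 at 3 h (edgeR adjusted p = 0.474). The costimulatory ligand Cd86 had 0.33 (edgeR adjusted p = 0.456) and the growth regulator Myc 0.31 (edgeR adjusted p = 0.403). Bcl2l11, which encodes the cell death protein BIM, had 0.45 (edgeR adjusted p = 0.0524). From rest to 3 h 10 of the 15 rose and 4 fell in both genotypes. Of all genes, 38.6% rose and 36.4% fell in Cre-only cells, and 37.7% rose and 36.6% fell in c-k/o cells. In Cre-only cells Batf (3.33) and Cd86 (2.39) rose, and the ectonucleotidase Entpd1 (-4.05) and the survival gene Bcl2 (-3.36) fell.

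The genes whose pattern over the 12 samples was most like each member were found by Pearson's r of log2 normalized CPM over all 13538 genes, as a description: the 12 points fall into 4 groups and share the change from rest to 3 h. For Nr4a1 they were Tnfaip8 (0.983), A930012O16Rik, Adck3, Txndc5 and Hfe (0.969). For Nr4a2 they were Hsh2d (0.973), Mov10, Cd47, Slc2a1 and Gm7592 (0.947). For Nr4a3 they included Obfc2a (0.998), 1600012F09Rik, Nol9 and Cebpg (0.997). Hsh2d, an adaptor of antigen receptor signalling, was at 14.6 to 16.1 normalized CPM in 3-h Cre-only samples and at 24.6 to 25.9 in 3-h c-k/o samples. Slc2a1, the glucose transporter GLUT1, was at 39.8 to 41.5 and 60.9 to 68.8. By Spearman's rho 2 and 0 of the 5 genes were found again for Nr4a1 and Nr4a2. Between members r was 0.869 for Nr4a1 with Nr4a2, -0.80 for Nr4a1 with Nr4a3 and -0.603 for Nr4a2 with Nr4a3.

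Markers of macrophages and monocytes, cells that also express NR4A genes, moved with the change from rest to 3 h. All 11 tested markers of the list fell in both genotypes, beside 36.4% of all genes in Cre-only and 36.6% in c-k/o cells. Their summed level was 608 to 782 normalized CPM in resting and 85.5 to 110 in 3-h Cre-only samples, and 528 to 1010 in resting and 91 to 194 in 3-h c-k/o samples. None of the 11 was at 0 in any whole group. Between genotypes 0 of the 11 were called by edgeR's test at either time, with 0 at rest and 1 at 3 h at an unadjusted p under 0.05 and the same counts called by DESeq2, and their median log2 fold change was 0.20 at rest and 0.81 at 3 h. At 3 h the sum was 110, 85.5 and 101 in Cre-only samples and 91, 194 and 126 in c-k/o samples, where Nr4a2 was at 47.6, 45.0 and 46.1. The sum of 12 T cell markers went from 229 to 249 at rest to 20.5 to 34.8 at 3 h over both genotypes, with Cd2, which B cells also express, at up to 238. The sum of 10 markers of NK, plasma and red cells was 54.7 to 157 at rest and 18.1 to 66.6 at 3 h. Among the 9 of these tested, edgeR and DESeq2 called 1 by genotype at rest and 0 at 3 h, where 0 had an unadjusted edgeR p under 0.05. The gene called was Sdc1, the plasma cell marker CD138, which was at 17.4 to 18.8 normalized CPM in resting Cre-only and 5.97 to 8.98 in resting c-k/o samples (log2 fold change -1.35, edgeR adjusted p = 0.00157, under 0.05 in 15 of 15 alternatives). The part of these cells in the lower NR4A levels at 3 h and in the differences between genotypes was not tested, and in bulk samples fewer cells of a type and less RNA per cell cannot be told apart.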

How the data were processed

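The authors lysed purified splenic B cells with added ERCC RNA, made stranded poly(A) libraries, sequenced paired ends, aligned the reads to mm9 (NCBIM37) with TopHat2 2.0.11 after CASAVA 1.8.4 and used featureCounts for Ensembl genes. Raw read counts per gene were deposited, with 0 ERCC rows. Amounts of RNA per cell could therefore not be estimated, and all changes are relative. The strand setting and the handling of reads with several alignments are not given in the sources used here. Reads of an antisense transcript could then count towards a gene, although 0 annotated genes overlap the members.

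Counts were read with Python 3.11.15 and pandas 2.3.3 and fitted in R 4.3.3. Genes passing filterByExpr of edgeR 4.0.16 (minimum of 10 counts) were kept, 13538 in all, and TMM factors were 0.886 to 1.07. A robust quasi-likelihood model, with 1 mean per group for the 4 groups, was fitted to the 12 samples together. Adjusted p-values are Benjamini-Hochberg values over all tested genes, with a threshold of 0.05, and intervals are 95% intervals of the fit. A floor of 3 counts was 0.127 to 0.208 CPM, for counting error only. An exact permutation test of 3 against 3 samples cannot give a p under 0.1. Whether replicates were separate mice is not stated in the labels, and p-values measure the spread between these samples. Symbols were matched for 37205 of 37991 identifiers. Levels per kb use the union of exons. The fits were tested on simulated data.

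The members, lists and tests were chosen with earlier results of these data known. Genes named beside the members are those of each list called by genotype, up to 4 higher and 4 lower, the 5 with the highest r to each member (1 of those for Nr4a3 is not reported here), and Runx1. List genes named for the change from rest to 3 h, and those without a call, were chosen after their values were seen. Same-numbered resting and 3-h samples deviated together in Cre-only cells (r of 0.275, 0.176 and 0.144 over genes) but not in Runx1 c-k/o cells (-0.254, -0.264 and 0.254), and the numbers paired nothing across genotypes (-0.0665 to 0.068). Alternatives were DESeq2 size factors, no filter, at least 10 counts in every sample, DESeq2 1.42.0, 1 factor of unwanted variation (RUVs), replicate blocks, a fit of the 2 groups alone, leaving out each sample and, added after the data were examined, library totals without TMM.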

Additional observations from a re-analysis of the deposited data

Results flagged for a closer look

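For Nr4a2 the genotype difference, c-k/o less Cre-only, was larger at 3 h than at rest by 1.42 on the log2 scale, and the test of that difference passed the threshold (edgeR adjusted p = 0.00814). At 3 h all 3 c-k/o samples lay above all 3 Cre-only samples, and at rest the genotypes overlapped. Groups of 3 samples were not tested for outlying samples.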

How the results depend on the processing

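With 3 samples per group, only differences that are large beside the spread could be called. The lowest count of a member was 258, for Nr4a2 in 3-h Cre-only cells. Nr4a2 at 3 h and for the interaction kept its direction and its call under every alternative run. Nr4a1 at 3 h kept its direction and lost its call with only the 2 groups compared (0.71) and without 4 of the 6 samples. No member was called at rest, and Nr4a3 was called by genotype in no alternative. The cause was not tested for any change named here.

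Counts of genes called at rest, at 3 h and for the interaction were 378, 709 and 83 by DESeq2, 524, 1036 and 142 with 1 RUVs factor in edgeR, and 611, 1230 and 253 with this factor in DESeq2. The count at 3 h was 158 with only the 2 groups compared. With the replicate block within genotype the interaction had 4 genes called, and with the replicate block over all groups Nr4a2 kept its interaction (1.42, edgeR adjusted p = 0.0224); the blocks changed no member's call. With each sample left out in turn the counts ran from 81 to 140 at rest, 180 to 617 at 3 h and 4 to 31 for the interaction.

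The log2 fold change of Nr4a1 at rest was 0.015 with no filter and -0.14 to 0.10 with a sample left out. With a sample left out, Nr4a2 at rest ran from -0.0070 to 0.21 and Nr4a3 from -0.27 to 0.35, and the interaction of Nr4a3 ran from -0.21 to 0.42. Nr4a1 at 3 h ran from 0.59 to 0.79 with a sample left out. Its interaction was called with 1 RUVs factor in edgeR (0.68) and in DESeq2 (0.72). For the change from rest to 3 h, which has no test here, 1 RUVs factor in edgeR gave -1.76 for Nr4a1 and 2.23 for Nr4a3 in Cre-only and -1.08 for Nr4a1 in c-k/o cells, and in DESeq2 -1.86, 2.08 and -1.14, with 2.17 for Nr4a3 in c-k/o cells. At least 10 counts in every sample gave -1.49 and 2.50 for Nr4a1 and Nr4a3 in Cre-only and -0.31 for Nr4a2 in c-k/o cells. Library totals without TMM gave -0.32 for the last, and the median of all genes in that comparison was then -0.112. Of 195 values of the other named genes under alternatives, 69 lost a call, 2 gained one and 124 kept theirs or stayed uncalled, with 0 reversed.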
